A study of Mus musculus with 23 samples.

Results

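The genes described here are 10 genes of the absorptive surface of the mouse small intestine, and they were measured in the ileum of male mice on single-colour arrays. They comprised the disaccharidases *Lct*, *Sis* and *Treh*, the peptidases *Anpep* and *Dpp4*, the sugar transporters *Slc5a1*, *Slc2a2* and *Slc2a5*, the peptide transporter *Slc15a1* and the amino acid transporter *Slc7a9*. All probes carrying these gene names on the array were taken, which gave 15 probes, and the probe with the highest mean signal stood for its gene. All 15 probes passed the filter on dim probes, and they were part of 37591 probes and 17727 genes tested. The study asked what the steroid pregnenolone 16α-carbonitrile (PCN), which activates the pregnane X receptor (PXR) of rodents, changes in mice with and without that receptor. Oil-treated wild-type mice (WT CONT, n = 6), PCN-treated wild-type mice (WT PCN, n = 5), oil-treated receptor-deficient mice (*Pxr*-/- CONT, n = 6) and PCN-treated receptor-deficient mice (*Pxr*-/- PCN, n = 6) were profiled, with 1 array per mouse. All were C57BL/6J or backcrossed to that strain. The WT mice were bought at 6 weeks of age and the *Pxr*-/- mice came from a colony kept in house for 10 years, so genotype and origin cannot be told apart. After 2 weeks of acclimatization, PCN (100 mg/kg in corn oil) or the oil alone was given daily by intraperitoneal injection for 4 days. Ileum was taken at ZT6, 6 h after the last dose, from mice with free access to food. The labels call this state fed and the study calls it semi-fasted, and feeding was not measured on these arrays.

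The brush border is the carpet of microvilli on the gut-facing side of enterocytes. Enzymes anchored in it cut disaccharides and peptides into units that transporters in the same membrane carry into the cell. Along the gut these genes differ in level, with lactase and much of the sugar handling set toward the jejunum and bile acid uptake set toward the ileum. A change in several of them together can therefore accompany a change in the regional or crypt-to-villus makeup of a tissue piece. In pieces of the whole ileum wall, fewer cells of a type and less RNA per cell cannot be told apart.

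Detection was counted in 3 lists of regional marker genes, which by itself does not tell the regions apart. Of all spots other than controls, 62.7% to 68.8% were well above background on an array. All 23 ileum markers, among them the bile acid carriers *Fabp6* and *Slc10a2*, were well above background on all 23 arrays. Of 18 colon markers, 9 were detected on all arrays and 5 on none. Of 24 markers of the proximal small intestine, 20 were detected on all arrays, and the duodenal factor *Pdx1* was on none. *Gata4*, a proximal factor, was dim and was detected on 16 arrays. The probe for *Nr1i2*, which encodes PXR, gave 12.13 ± 0.23 (SD, n = 6) in WT CONT and 11.72 ± 0.30 (n = 6) in *Pxr*-/- CONT on the log2 scale, a difference of -0.41 with an adjusted p of 0.336, and the genotype labels are therefore not checked by this probe. The median spot signal of the arrays lay between 74 and 106.5, and at most 2 spots on an array were saturated. WT CONT replicate 1 gave the lowest value of its group for 7 of the 10 genes, with a mean deviation of -0.50 over them. Without it, 0 of the 10 genes were called for PCN in WT or for genotype without PCN, as with it. The PCN differences in WT were then 0.51 for *Sis*, 0.33 for *Slc2a5*, 0.13 for *Slc2a2*, 0.08 for *Slc5a1* and *Slc15a1*, 0.06 for *Lct*, -0.02 for *Anpep*, -0.04 for *Slc7a9*, and -0.08 for *Treh* and *Dpp4*. The genotype differences without PCN were then -1.09 for *Slc2a2*, -0.77 for *Treh*, -0.36 for *Slc15a1*, -0.23 for *Slc7a9*, -0.22 for *Sis*, -0.15 for *Dpp4*, -0.14 for *Slc2a5*, -0.01 for *Anpep* and *Slc5a1*, and 0.24 for *Lct*. B cell markers were high on WT PCN replicates 2 and 3, with mean deviations of 2.42 and 2.50, and on *Pxr*-/- PCN replicate 1, with 0.99.

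Among the 10 genes, *Slc2a5*, which encodes the fructose transporter GLUT5, rose with PCN in *Pxr*-/- mice. It was the single gene of the set to be called, that is, to reach a Benjamini-Hochberg adjusted p of 0.05 or less together with a change of more than 1.5-fold. In *Pxr*-/- CONT its log2 signal was 11.39, 11.77 and 12.52 (lowest, median and highest, n = 6), and in *Pxr*-/- PCN it was 12.62, 12.82 and 13.03 (n = 6). All 6 PCN-treated mice lay above all 6 controls. The log2 change was 0.95 (SE 0.209), or 1.94-fold, with an adjusted p of 0.015. It was 0.85 within wash batch 1 and 1.06 within wash batch 2. In this comparison 1.47% of all genes tested were called and 3.18% had groups that did not overlap, against 1 of the 10 genes in each case, and 2 of the 10 had an unadjusted limma p under 0.05, against 23.2% of all genes.

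In WT mice, the *Slc2a5* log2 signal was 11.38, 11.91 and 12.43 in WT CONT (lowest, median and highest, n = 6), and 12.22, 13.03, 12.30, 11.77 and 12.33 in the WT PCN mice. The groups overlapped, with 1 of 5 treated mice above all controls and 4 of 5 above their mean. The log2 change was 0.38 (SE 0.22), with an adjusted p of 0.535. The PCN effect was larger by 0.58 in *Pxr*-/- than in WT mice (95% confidence interval -0.05 to 1.21), with an unadjusted p of 0.0693 and an adjusted p of 0.999, so a difference between the genotypes was not shown. Between PCN-treated mice, *Slc2a5* was 0.49 higher in *Pxr*-/- than in WT mice, with an unadjusted p of 0.0352 and an adjusted p of 0.646. Between control mice the difference was -0.09. The plot of signal by mouse shows the narrow spread of *Pxr*-/- PCN (SD 0.16) beside the wider spread of the other groups (SD 0.42 to 0.45).

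**Figure D1:**
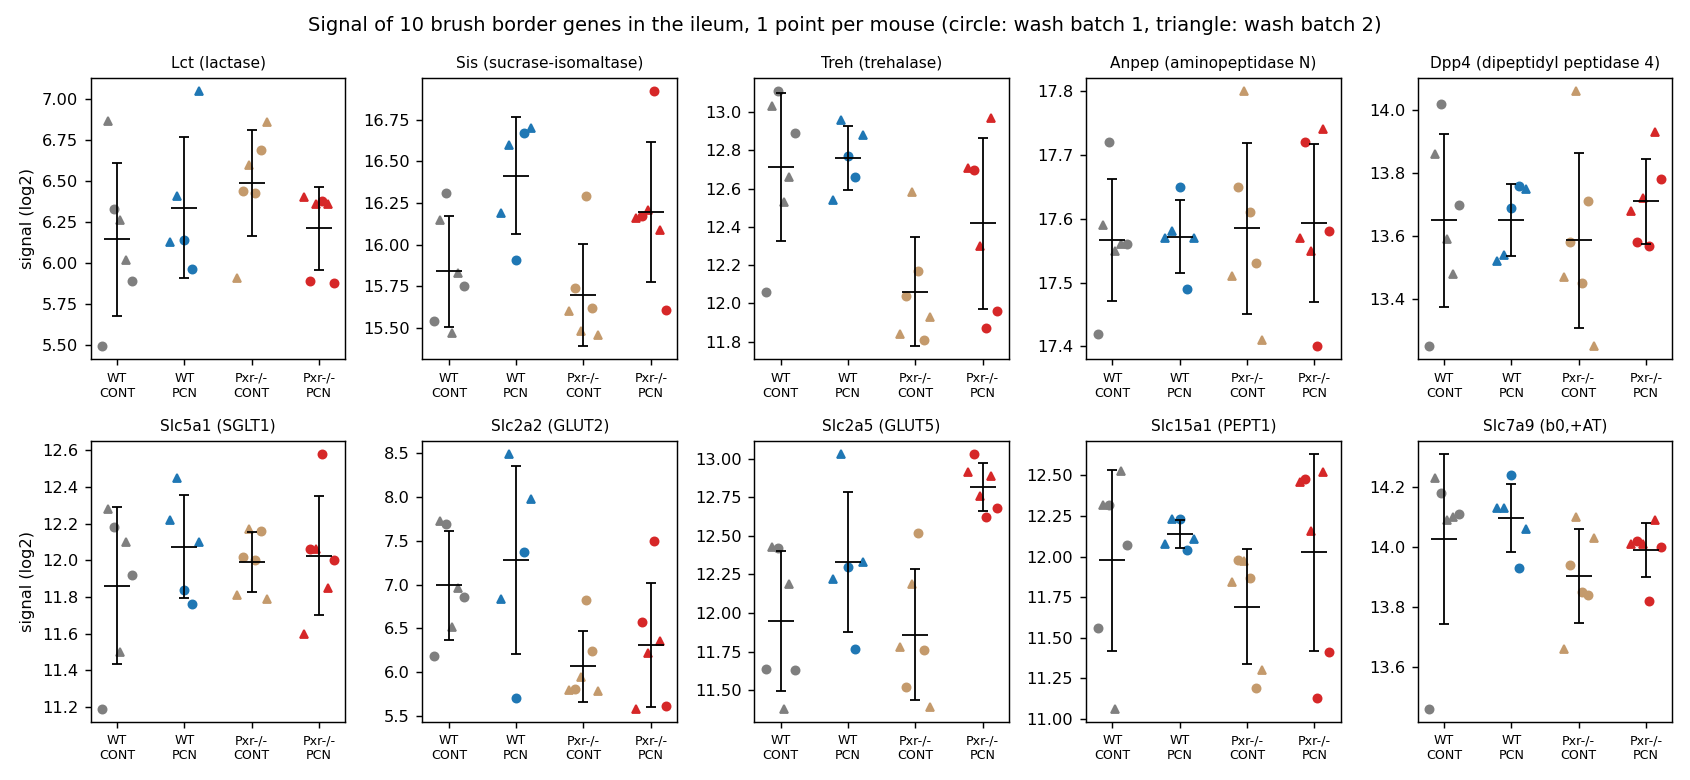
Log2 signal of the 10 genes (brightest probe of each) in the ileum, 1 point per mouse in 4 groups, with the mean and SD in black, circles for wash batch 1 and triangles for wash batch 2; each panel has its own axis, which does not start at 0. For *Slc2a5* the 6 *Pxr*-/- PCN mice lie between 12.62 and 13.03, above all *Pxr*-/- CONT mice, while the groups of the other 9 genes overlap.

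When the PCN effects of both genotypes were averaged, a comparison added after the values were seen, *Slc2a5* was 0.67 higher with PCN (SE 0.152, 1.59-fold, adjusted p = 0.00837) and was the single member called, where 1.49% of all genes were called. In that comparison 2 of the 10 genes had an unadjusted limma p under 0.05, as did 29.4% of all genes. It was 0.49 within wash batch 1 and 0.80 within wash batch 2. Without WT PCN replicate 2, whose B cell markers were high, it was 0.58 with an adjusted p of 0.0177, which lies under the fold threshold.

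*Sis* encodes sucrase-isomaltase, which splits sucrose and the branch points of starch. It had the largest PCN difference of the set in WT mice and the next largest after *Slc2a5* in *Pxr*-/- mice, and it did not pass the test in either genotype. Its log2 signal was 15.47, 15.79 and 16.31 in WT CONT (lowest, median and highest) and 16.19, 16.60, 15.91, 16.67 and 16.70 in WT PCN. All 5 treated WT mice lay above the control mean, and 3 lay above every control. The log2 difference was 0.58 (SE 0.203), with an unadjusted p of 0.00912 and an adjusted p of 0.205. In *Pxr*-/- mice the values were 15.46, 15.61 and 16.29 without PCN and 15.61, 16.16 and 16.92 with it (n = 6 each), a difference of 0.50 (SE 0.193, adjusted p = 0.155). The averaged PCN effect was 0.54 (SE 0.14, 1.45-fold), with an adjusted p of 0.0191, so it passed on p and fell short of the fold threshold. It was 0.39 within wash batch 1 and 0.66 within wash batch 2. A dimmer *Sis* probe, designed on another transcript, gave 0.15 in WT and 0.20 in *Pxr*-/- mice, with SEs of 0.425 and 0.404.

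Promoters are shown for *Slc2a5* and *Sis*, the genes with the largest averaged PCN effects. They are the 250 bases before the RefSeq start site (GRCm38.p6), with capitals marking matches on either strand to any of 9 short motifs.

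Slc2a5, chr4:150119094-150119343, plus strand: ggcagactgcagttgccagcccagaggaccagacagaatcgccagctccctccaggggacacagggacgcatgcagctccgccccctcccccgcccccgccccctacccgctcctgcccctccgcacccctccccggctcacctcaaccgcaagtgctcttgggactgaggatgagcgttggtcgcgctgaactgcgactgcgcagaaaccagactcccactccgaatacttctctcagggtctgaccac
Sis, chr3:72967864-72968113, minus strand: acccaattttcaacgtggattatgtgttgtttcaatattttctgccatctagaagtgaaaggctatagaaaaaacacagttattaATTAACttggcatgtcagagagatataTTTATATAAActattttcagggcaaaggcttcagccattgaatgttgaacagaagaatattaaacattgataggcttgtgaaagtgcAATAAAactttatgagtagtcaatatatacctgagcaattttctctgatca

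The motifs searched were the HNF1 half-site GTTAAT, the HNF4 core CAAAGT, the CDX core TTTATT, the GATA core AGATAA, the E-box CACGTG, the TATA box TATAAA, the nuclear receptor half-site AGGTCA, and direct repeats of a looser half-site (the letters AGNTCA) with 3 or 4 bases between the copies, spacings that PXR is known to bind. The *Slc2a5* window held no match to any of them. The *Sis* window held 1 HNF1 half-site, 1 CDX core and 2 overlapping TATA boxes. Of 32851 promoters of the same length, 6.43% held the HNF1 half-site, 18.1% the CDX core and 12.4% the TATA box. The half-site AGGTCA was in 14% of promoters, and among the 10 genes it was in those of *Treh*, *Slc2a2* and *Slc7a9*. None of the 10 genes had either direct repeat, which 0.0517% and 0.103% of all promoters held. A match describes these letters in this window and is not evidence of binding.

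The other disaccharidases had smaller PCN differences. *Treh*, which encodes trehalase, differed by 0.03 in WT mice and by 0.36 (SE 0.182, adjusted p = 0.283) in *Pxr*-/- mice. Its largest difference was between genotypes without PCN. The log2 signal was 12.06, 12.78 and 13.11 in WT CONT (lowest, median and highest, n = 6) and 11.81, 11.98 and 12.58 in *Pxr*-/- CONT (n = 6). All 6 *Pxr*-/- mice lay below the WT mean and 4 lay below every WT mouse. The difference was -0.65 (SE 0.182), with an unadjusted p of 0.00157 and an adjusted p of 0.161. It was -0.68 and -0.63 within wash batches 1 and 2, and -0.77 with an adjusted p of 0.0759 without WT CONT replicate 1. With slide in the model in place of wash batch, it was -0.91 with an adjusted p of 0.00529, which passes.

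*Lct* encodes lactase, which is highest before weaning. Its probe was dim, with a mean log2 signal of 6.29, and was well above background on 22 of 23 arrays. In WT mice the mean was 6.14 ± 0.46 (SD, n = 6) without and 6.34 ± 0.43 (n = 5) with PCN, and in *Pxr*-/- mice it was 6.49 ± 0.33 (n = 6) without and 6.21 ± 0.25 (n = 6) with PCN. The PCN effect was 0.16 in WT and -0.28 in *Pxr*-/- mice. The difference between them was -0.44 (SE 0.269). None of these differences passed the test. The signal was used without background subtraction, which compresses the changes of dim probes such as those of *Lct* and *Slc2a2*.

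Neither peptidase was called on any of its probes. *Anpep* encodes aminopeptidase N, which trims peptides from their amino end. Its mean log2 signal was 17.57 in both WT groups and 17.59 in both *Pxr*-/- groups, with SDs of 0.06 to 0.14 and no saturated spot. Its 4 differences lay between 0.01 and 0.02, and the 95% confidence interval of the PCN effect was -0.15 to 0.16 in WT and -0.14 to 0.16 in *Pxr*-/- mice. *Dpp4* encodes dipeptidyl peptidase 4, which releases dipeptides from proline-rich peptides and inactivates incretin hormones. Its brightest probe differed by 0.00 with PCN in WT mice (95% confidence interval -0.27 to 0.27) and by 0.12 in *Pxr*-/- mice (-0.13 to 0.38). A second *Dpp4* probe, designed on a separate transcript at chr2:62245782-62245841 (mm9), was lower by a log2 value of -0.42 with PCN in *Pxr*-/- mice (adjusted p = 0.0373), which is under the fold threshold, and its difference in WT mice was -0.24 (adjusted p = 0.422). A further probe, on the same RefSeq transcript as the brightest, gave 0.00 (SE 0.148) in WT and -0.08 (SE 0.141) in *Pxr*-/- mice. The probes of this gene therefore disagreed in direction in *Pxr*-/- mice, also within that transcript.

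Among the sugar transporters other than *Slc2a5*, *Slc5a1* encodes SGLT1, which brings glucose and galactose into the enterocyte with sodium. Its group means lay between 11.86 and 12.08. The PCN effect was 0.21 (SE 0.182) in WT and 0.03 (SE 0.173) in *Pxr*-/- mice, and the genotype differences were 0.13 and -0.05. *Slc2a2* encodes GLUT2, which lets sugars leave the cell toward the blood. Its probe was dim and its spread was the widest of the set. Log2 signal was 6.18, 6.91 and 7.73 in WT CONT (lowest, median and highest, n = 6), 6.84, 8.49, 5.71, 7.37 and 7.97 in WT PCN, 5.79, 5.88 and 6.82 in *Pxr*-/- CONT (n = 6), and 5.58, 6.29 and 7.50 in *Pxr*-/- PCN (n = 6). All 6 *Pxr*-/- CONT mice lay below the WT CONT mean, and 4 lay below every WT CONT mouse. The genotype difference was -0.92 (SE 0.387, adjusted p = 0.469) without PCN and -0.97 (SE 0.407, adjusted p = 0.585) with it. With PCN, the difference was 0.02 within wash batch 1 and -1.72 within wash batch 2. Averaged over treatments, again a comparison added after the values were seen, it was -0.94 with an adjusted p of 0.118, and without WT PCN replicate 3, the lowest mouse of its group, it was -1.16 with an adjusted p of 0.0202. In that averaged comparison 0 of the 10 genes and 0.615% of all genes were called, while 2 of the 10 and 12.5% of all genes had an unadjusted limma p under 0.05.

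*Slc15a1* encodes PEPT1, the proton-driven carrier of dipeptides and tripeptides. Its brightest probe, designed on a cDNA clone, differed by 0.14 (SE 0.257) with PCN in WT and by 0.34 (SE 0.244) in *Pxr*-/- mice. The probe for its RefSeq transcript gave 0.45 (SE 0.172, unadjusted p = 0.0156) and 0.48 (SE 0.163, unadjusted p = 0.00726), with adjusted p of 0.266 and 0.0998. Its averaged PCN effect was 0.47 (SE 0.119, 1.38-fold), with an adjusted p of 0.0167, which passes on p and not on fold, while that of the brightest probe was 0.24 (adjusted p = 0.439). On the RefSeq probe all 5 WT PCN mice lay above the WT CONT mean and all 6 *Pxr*-/- PCN mice lay above the *Pxr*-/- CONT mean. *Slc7a9* encodes the light subunit of the carrier for cystine and basic amino acids. Its PCN effect was 0.06 (SE 0.105) in WT and 0.09 (SE 0.0997) in *Pxr*-/- mice, and its genotype differences were -0.13 and -0.10.

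**Figure D2:**
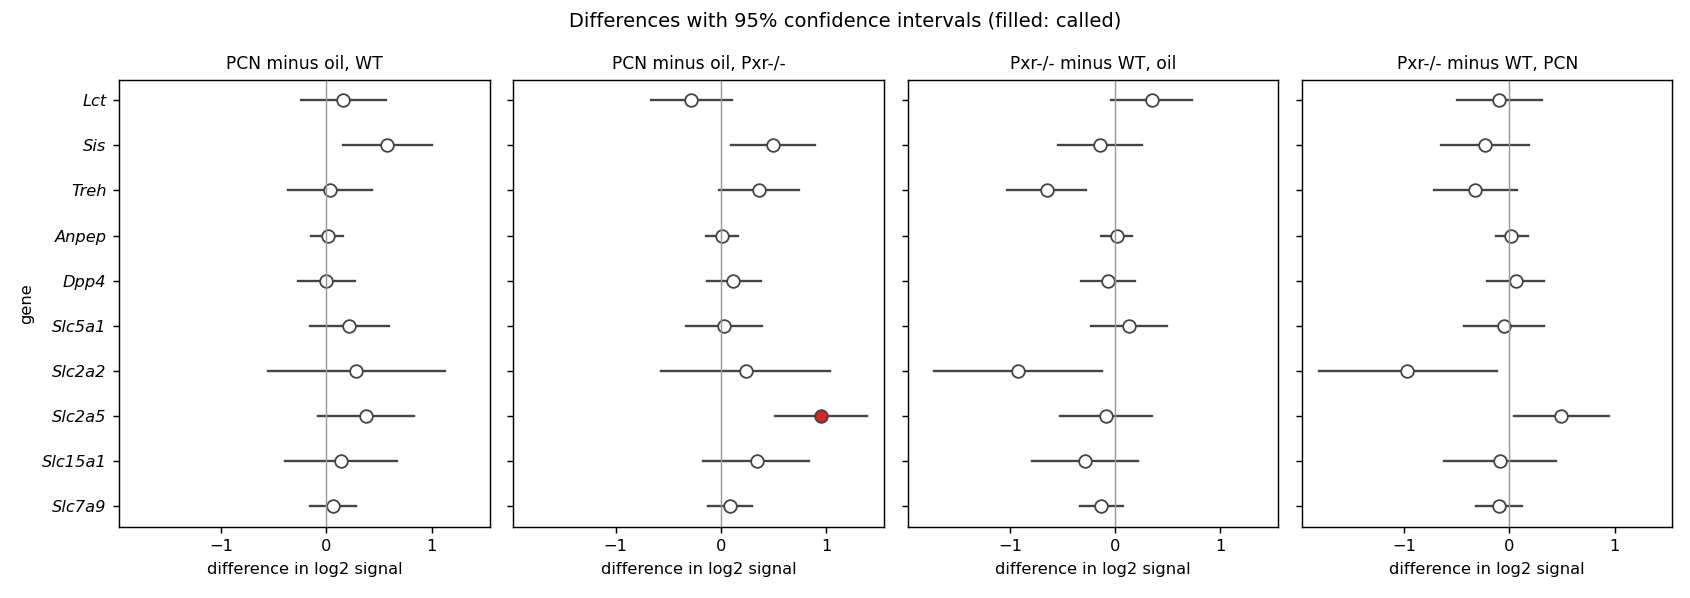
Differences in log2 signal for the 10 genes (points) with 95% confidence intervals (lines) in 4 comparisons, from the fit to all 23 arrays; filled points were called and open points were not. The single filled point is *Slc2a5* for PCN in *Pxr*-/- mice, at 0.95.

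Counted over the set, 0 of 10 genes were called for PCN in WT mice, where 1.05% of all genes were, and 1 of 10 had an unadjusted limma p under 0.05, against 14.9% of all genes. Of the 10, 9 were higher and 1 was at 0.00, with a median of 0.15, while the median over all genes was -0.02. In *Pxr*-/- mice 9 were higher and 1 was lower, with a median of 0.18, and the median over all genes was 0.00. Between genotypes without PCN, 0 of 10 were called (0.214% of all genes), 2 of 10 had an unadjusted limma p under 0.05 (10.3% of all genes), and the median was -0.11. Between genotypes with PCN, 0 of 10 were called (0.542% of all genes), 2 of 10 had an unadjusted limma p under 0.05 (8.51% of all genes), and the median was -0.09. For the difference between the PCN effects, 0 of 10 were called (0.118% of all genes) and 0 of 10 had an unadjusted limma p under 0.05 (5.06% of all genes), with changes of -0.44 to 0.58. The sign was the same in both wash batches for 6 of 10 genes for PCN in WT and for 7 of 10 for PCN in *Pxr*-/- mice. The 2 PCN comparisons use separate mice, and each genotype comparison shares its groups with them.

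The rest of the digestive and absorptive machinery gave few calls. Of 24 other brush border enzymes listed, 21 were tested and *Plb1*, which encodes a phospholipase of the brush border, was the single one called. It rose with PCN in WT mice by 1.32 (SE 0.295, adjusted p = 0.0234), from 7.01 ± 0.59 (SD, n = 6) to 8.29 ± 0.12 (n = 5). In that comparison 1.05% of all genes were called. With PCN *Plb1* was lower in *Pxr*-/- than in WT mice, at -1.49 (adjusted p = 0.0137), where 0.542% of all genes were called. In *Pxr*-/- mice its PCN effect was -0.64 (adjusted p = 0.212), and the difference between the PCN effects was -1.95 with an adjusted p of 0.0832. The medians of the 21 enzymes were 0.02 for PCN in both genotypes.

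Of 42 other nutrient transporters, 41 were tested. *Slc20a1*, a phosphate transporter, was the single one called for PCN in WT mice, where 1.05% of all genes were called. It rose by 0.62 (SE 0.147, adjusted p = 0.0346), and its difference in *Pxr*-/- mice was 0.29 (adjusted p = 0.255). In the averaged PCN effect, 2 of the 41 were called, beside 1.49% of all genes. *Slc5a4a*, a relative of SGLT1, was higher by 0.66 (adjusted p = 0.0109), and *Slc16a10*, an aromatic amino acid transporter, by 0.60 (adjusted p = 0.0446). The medians of the 41 transporters were -0.01 and 0.00 for PCN in WT and *Pxr*-/- mice. All 13 listed genes of sugar and ketone metabolism in the enterocyte, which include those that handle fructose after uptake, were tested, and none was called in the 5 comparisons of the design, with 3 and 2 of 13 at an unadjusted limma p under 0.05 for PCN in WT and *Pxr*-/- mice, against 14.9% and 23.2% of all genes. Their medians were 0.18 and 0.15. In the averaged comparisons, 1 of the 13 genes was called for PCN and 1 for genotype, beside 1.49% and 0.615% of all genes. *Pck1*, the gluconeogenic enzyme PEPCK, was higher with PCN by 1.14 (SE 0.319, adjusted p = 0.0286). *Fbp1*, fructose bisphosphatase, was lower in *Pxr*-/- mice, at -0.65 (SE 0.142, adjusted p = 0.0221). None of 22 microvillus genes or 21 tested enterocyte transcription factors was called in the same 5 comparisons, and for PCN in *Pxr*-/- mice 7 and 4 of them had an unadjusted limma p under 0.05, against 23.2% of all genes.

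Markers of the proximal small intestine and of the ileum were compared between the groups. Of 23 tested proximal markers, none was called in the 5 comparisons of the design, and 3 and 7 had an unadjusted limma p under 0.05 for PCN in WT and *Pxr*-/- mice, where 14.9% and 23.2% of all genes did. Their medians were 0.05 and 0.08 for PCN in WT and *Pxr*-/- mice, and -0.07 and 0.04 for genotype without and with PCN. *Gata4* differed by -0.25 and -0.12 with PCN in WT and *Pxr*-/- mice. The 23 ileum markers had medians of -0.07 and -0.06 for PCN, and -0.11 and -0.06 for genotype. For PCN in both genotypes the proximal and ileum medians had opposite signs, beside medians over all genes of -0.02 and 0.00. Both lists were mixed in direction. For PCN in WT and *Pxr*-/- mice, 13 and 12 of 23 proximal markers and 10 and 9 of 23 ileum markers were higher. A shift of regional identity was not tested. *Fabp6*, the ileal bile acid binding protein, went from 18.51 ± 0.07 (SD, n = 6) to 18.42 ± 0.17 (n = 5) with PCN in WT mice and from 18.53 ± 0.11 (n = 6) to 18.37 ± 0.14 (n = 6) with PCN in *Pxr*-/- mice. *Slc10a2*, which takes bile acids up from the gut, had group means of 14.70 to 14.83. Neither gene was called in any comparison.

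In the ileum list, 2 genes were called. For PCN in *Pxr*-/- mice it was 1 of 23, where 1.47% of all genes were called. For genotype with PCN it was also 1 of 23, where 0.542% were. For PCN in WT and *Pxr*-/- mice, 4 and 6 of the 23 had an unadjusted limma p under 0.05, against 14.9% and 23.2% of all genes. *Cubn*, the receptor for the vitamin B12 carrier complex, rose with PCN in *Pxr*-/- mice by 0.61 (SE 0.162, adjusted p = 0.0405). Its means were 14.49 ± 0.34 (SD) in *Pxr*-/- CONT and 15.09 ± 0.41 in *Pxr*-/- PCN. In WT CONT and WT PCN they were 15.16 ± 0.25 and 15.42 ± 0.19, so the rise started below the WT control level. *Aspa*, which encodes aspartoacylase, was lower in *Pxr*-/- than in WT mice with PCN, at -0.61 (SE 0.128, adjusted p = 0.0219). Of 10 tested colon markers none was called in the 5 comparisons, and their medians were 0.04 and 0.30 for PCN in WT and *Pxr*-/- mice, and -0.01 and 0.16 for genotype without and with PCN. With PCN, 9 of the 10 were higher in *Pxr*-/- than in WT mice, by up to 2.19, and 2 had an unadjusted limma p under 0.05, against 8.51% of all genes. In *Pxr*-/- PCN the mean deviation of the colon list ran from -0.17 to 1.03, and in *Pxr*-/- CONT from -0.75 to 0.44.

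**Figure D3:**
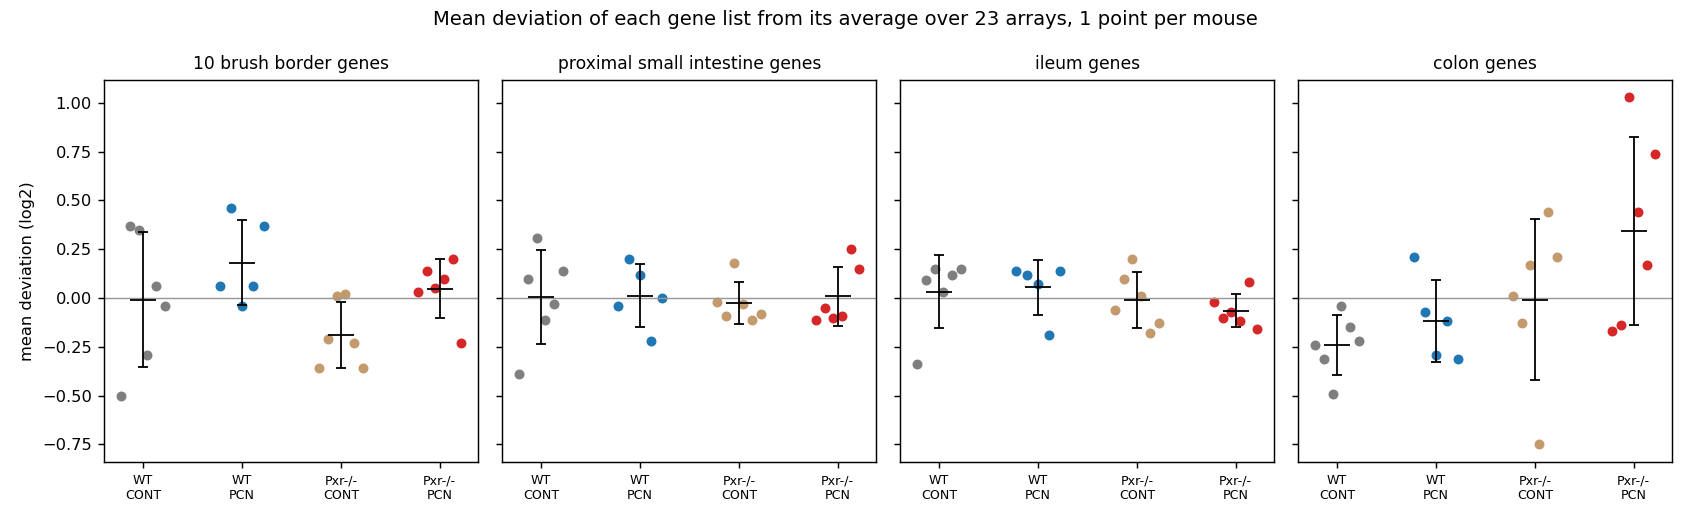
Mean deviation (log2) of the 10 brush border genes and of the tested proximal small intestine, ileum and colon markers from their average over all 23 arrays, 1 point per mouse in 4 groups, with the mean and SD in black. The groups overlap in all 4 panels, and WT CONT replicate 1 is the lowest mouse for the 10 genes (-0.50), the proximal list (-0.39) and the ileum list (-0.34).

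Genes of the suckling enterocyte were listed because lactase belongs to that stage. Of 10, 1 was called for PCN in each genotype, where 1.05% of all genes in WT and 1.47% in *Pxr*-/- mice were called. *Clu*, which encodes clusterin, rose with PCN in WT mice by 0.85 (adjusted p = 0.0388), with SDs of 0.14 in WT CONT and 0.70 in WT PCN. *Ctsl*, the lysosomal protease cathepsin L, rose with PCN in *Pxr*-/- mice by 0.60 (adjusted p = 0.00366). In the other genotype each mean was also higher with PCN, without a call. *Clu* went from 12.31 to 12.60 in *Pxr*-/- mice and *Ctsl* from 12.29 to 12.56 in WT mice. Of the 10, 3 and 6 had an unadjusted limma p under 0.05 for PCN in WT and *Pxr*-/- mice, against 14.9% and 23.2% of all genes. Both genes are also expressed outside the enterocyte. None of the 10 villus tip or 14 crypt and proliferation markers was called for PCN in either genotype, and in *Pxr*-/- mice 3 and 6 of them had an unadjusted limma p under 0.05, beside 23.2% of all genes. The crypt medians were -0.17 and -0.28 for PCN in WT and *Pxr*-/- mice, and the villus tip medians were -0.14 and -0.17.

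Markers of other cells in the gut wall and of inflammation moved in the same comparison as *Slc2a5*. With PCN in *Pxr*-/- mice, 3 of 10 smooth muscle genes were called higher (*Actg2* at 0.67, *Cnn1* at 0.67 and *Tagln* at 0.59), as were 3 of 8 fibroblast genes (*Col1a1* at 1.04, *Lum* at 0.82 and *Col3a1* at 0.81). So were 4 of 9 tested neutrophil and inflammation genes, *Spp1* at 3.41, *S100a9* at 2.91, *S100a8* at 2.54 and *Lcn2* at 0.76. Of all genes tested, 1.47% were called in this comparison. In WT mice the called genes of these lists were *Lum* at 0.70, *S100a9* at 2.16, *S100a8* at 1.64 and *Lcn2* at 0.78, where 1.05% of all genes were called. *Spp1* went from 6.02 ± 1.02 to 8.80 ± 1.94 (SD) in WT mice and was not called. The smooth muscle, fibroblast and neutrophil and inflammation medians were 0.15, 0.27 and 0.58 in WT and 0.25, 0.51 and 0.63 in *Pxr*-/- mice. An unadjusted limma p under 0.05 was reached by 5 of 10, 2 of 8 and 7 of 9 in WT mice (14.9% of all genes). In *Pxr*-/- mice it was reached by 4 of 10, 5 of 8 and 8 of 9 (23.2% of all genes). The mean deviation of the neutrophil and inflammation list was -0.67 to -0.22 in *Pxr*-/- CONT and 0.14 to 1.64 in *Pxr*-/- PCN. That of the fibroblast list was -0.69 to 0.11 and -0.06 to 0.70 in the same groups. None of 10 pan-epithelial markers was higher with PCN in either genotype, with medians of -0.16 and -0.14 in WT and *Pxr*-/- mice, and *Epcam* differed by -0.16 and -0.12. None of these 10 was called, while 3 and 4 had an unadjusted limma p under 0.05, beside 14.9% and 23.2% of all genes. Of 8 pancreatic acinar markers 3 were tested and none was called. None of the 8 B cell markers was called, with medians of 1.42 and 0.45 for PCN in WT and *Pxr*-/- mice. Of these 8, 7 and 0 had an unadjusted limma p under 0.05, beside 14.9% and 23.2% of all genes. The *Slc2a5* change in *Pxr*-/- mice was 0.95 without *Pxr*-/- PCN replicate 1, the array of that group with high B cell markers. The lists with called genes were highest on other arrays of that group. These were replicate 5 for neutrophil and inflammation (1.64) and smooth muscle (0.71), and replicate 6 for fibroblast (0.70). That value therefore does not bear on these lists. The part of other cells and of inflammation in the *Slc2a5* result was not tested.

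Of 17717 other genes, the 3 whose signal ran most like that of *Slc2a5* over the 23 arrays were *Trib3*, *Tef* and *Clcn5*. Spearman's rho with *Slc2a5* was 0.938, 0.857 and 0.853, and Pearson's r was 0.88, 0.851 and 0.841. The arrays share groups and batches, so these values are a description. *Trib3*, a stress-induced pseudokinase, rose by 0.91 (SE 0.16, adjusted p = 0.00367) with PCN in *Pxr*-/- mice, its difference in WT mice was 0.16 (adjusted p = 0.784), and the PCN effects differed by 0.75 with an adjusted p of 0.699. *Tef*, a clock-controlled transcription factor, rose by 0.71 (adjusted p = 0.0217) in *Pxr*-/- mice, and its difference in WT mice was 0.31 (adjusted p = 0.524). *Clcn5*, an endosomal chloride and proton exchanger, differed by 0.55 (adjusted p = 0.00788, under the fold threshold) in *Pxr*-/- mice and by 0.14 (adjusted p = 0.694) in WT mice. In *Pxr*-/- mice all 6 treated mice lay above all 6 controls for each of the 3 genes, as for *Slc2a5*. The groups did not overlap in this comparison for 3.18% of all genes. Because the 3 genes were picked for likeness to *Slc2a5* on these same arrays, their changes are not separate support.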

How the data were processed

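Scanner files of 23 arrays hold intensity per the file headers, the linear median brightness of each spot, extracted by the authors with Agilent Feature Extraction 10.10.1.1 (submitters' processing notes) without background subtraction. Log2 values that the authors deposited as a table, made with a filter, wash batch correction and CrossNorm, served as an alternative. Its values for the 10 genes differed from those used here by at most 0.16.

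Control and outlier spots were removed, log2 values were averaged per probe, and arrays were quantile normalized. Probes were kept where 50% or more of any group's arrays showed them well above background, and were tested with limma 3.58.1 (R 4.3.3), 2-sided, on 4 groups and wash batch, with Benjamini-Hochberg adjustment over all tested probes. A call needed both an adjusted p of 0.05 or less and a change over 1.5-fold. The fit was tested on simulated data.

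Probe positions are on mm9. Named genes were the 10, up to 4 called genes with the largest change per list and comparison, *Fabp6*, *Slc10a2*, *Gata4*, *Pdx1*, *Epcam* and *Nr1i2*, and the 3 most like *Slc2a5*. A further gene of this rule is not reported here. Some lists share genes. Members and lists were chosen with earlier results of these data known. Precision is limited by having 5 or 6 arrays in a group. Alternatives covered signal column, background correction, normalization, filter, wash batch, slide, replicate number, probe choice, fold threshold, the arrays fitted, and leaving out each array.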

Additional observations from a re-analysis of the deposited data

Results flagged for a closer look

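Of 40 sets of values (10 genes in 4 groups), 3 held an array far from the rest of its group by Dixon's ratio, the gap to the nearest value over the range, and chance gives about 5% of sets. *Sis* was 16.29 in *Pxr*-/- CONT replicate 4, against 15.74 for the next array (ratio 0.663). *Slc7a9* was 13.46 in WT CONT replicate 1, against 14.09 (ratio 0.818). *Slc7a9* was also low in *Pxr*-/- PCN replicate 4, at 13.82 (ratio 0.653).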

How the results depend on the processing

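*Slc2a5* was called for PCN in *Pxr*-/- mice under all 13 alternatives and without each of the 23 arrays, with log2 changes of 0.84 to 1.11. No member was called for PCN in WT or for genotype with PCN under any of them, nor for the difference between PCN effects under the 12 that apply to it, since that difference uses all 4 groups and fitting only the compared groups changes nothing. For genotype without PCN, 1 member (*Treh*, -0.91, adjusted p = 0.00529) was called with slide as a fixed block. For the averaged PCN effect, 2 members passed with no fold threshold, and 0 to 2 were called when 1 array was left out, with *Sis* called at 0.62, 0.61 and 0.59 without WT PCN replicate 3, *Pxr*-/- PCN replicate 6 and *Pxr*-/- CONT replicate 4, and *Slc2a5* lost at 0.58 without WT PCN replicate 2. With the mean of all probes, the averaged *Sis* effect was 0.35 (adjusted p = 0.247). For the averaged genotype difference, 1 member was called with slide as a fixed block (*Treh*, -0.61) and 0 to 1 when 1 array was left out (*Slc2a2*, -1.16, without WT PCN replicate 3). The causes were not tested.

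Of 1740 recomputed values, 58 changed sign, none with an adjusted p under 0.451. For PCN in WT these were -0.11 (*Treh*), -0.02 (*Anpep*) and -0.01 (*Slc15a1*) with slide as a fixed block, 0.01 for *Dpp4* with the processed signal or only the compared groups, and -0.01 for *Anpep* with the replicate block. For PCN in *Pxr*-/- mice they were -0.01 and 0.00 for *Anpep* and *Slc5a1* with 75th percentile centring, -0.02 for *Anpep* with the processed signal and -0.13 for *Dpp4* with all its probes. For genotype they were -0.04 (*Anpep*, slide as a fixed block) and 0.09 (*Dpp4*, all its probes) without PCN, and 0.00 (*Anpep*, 75th percentile centring) with it. Leaving out 1 array gave, for PCN in WT, *Treh* -0.08 to 0.13, *Anpep* -0.02 to 0.04, *Dpp4* -0.08 to 0.07, *Slc2a2* -0.01 to 0.72, *Slc15a1* -0.08 to 0.24 and *Slc7a9* -0.04 to 0.10. For PCN in *Pxr*-/- mice it gave *Anpep* -0.03 to 0.05, *Slc5a1* -0.09 to 0.12 and *Slc2a2* -0.02 to 0.40. For genotype without PCN it gave *Anpep* -0.03 to 0.06, *Dpp4* -0.17 to 0.01, *Slc5a1* -0.01 to 0.22 and *Slc2a5* -0.24 to 0.03, and with PCN *Lct* -0.18 to 0.05, *Anpep* -0.01 to 0.06, *Slc5a1* -0.16 to 0.05 and *Slc15a1* -0.20 to 0.07.

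Arrays of different groups that share a replicate number did not pair. The 33 such pairs had correlations of deviations from -0.265 to 0.351, 5 of them over 0.1, and 5 of 23 arrays correlated best with their own number. With the replicate block, the *Slc2a5* change in *Pxr*-/- mice was 0.95 (adjusted p = 0.0209), the counts of members called were the same, and genes called went from 186 to 159 for PCN in WT and from 261 to 225 for PCN in *Pxr*-/- mice. Dim probes limit what can be seen for *Lct* and *Slc2a2*.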
